A study of Mus musculus with 9 samples.

Results

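The 10 genes described here encode osteopontin (Spp1), 6 matrix metalloproteinases (Mmp8, Mmp9, Mmp12, Mmp13, Mmp14 and Mmp19) and 3 tissue inhibitors of metalloproteinases (Timp1, Timp2 and Timp3). They were taken by gene symbol from a table of 26157 genes, and 9 of the 10 had a row. The choice of these genes was made with earlier results of the same data known, so the counts below describe them and are not independent evidence. Of these, 8 reached 1 TPM (a transcript level scaled by transcript length and by the library's total) in at least 3 of the 9 libraries and were tested, among 14207 genes tested in all. Mmp14 fell under that limit, and Timp3 was not analysed here.

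The libraries came from J774A.1, a mouse macrophage line that is kept in culture, with 3 libraries in each of 3 groups. Q11 cells were given Q11 together with IL-4 and IL-13. M2 cells were given IL-4 and IL-13 at 10 ng/mL, and Ctrl cells were grown normally. By the title of the series, Q11 inhibits CYP2E1, a cytochrome P450 enzyme. The labels give neither its dose, nor the cytokine dose in Q11 cells, nor the duration of treatment. No animals, hosts or transgenes were involved, and the findings are limited to 1 cell line.

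Osteopontin is a secreted, phosphorylated glycoprotein of bone and inflamed tissue that binds integrins through an RGD motif and also binds CD44; macrophages are a well-known source of it. Matrix metalloproteinases are zinc-dependent enzymes, made as inactive proenzymes, that cut collagens, elastin, gelatins and other matrix and cell-surface proteins. TIMPs are small secreted proteins that block the active site of these enzymes. Transcript levels say nothing of how much of each proenzyme is activated or inhibited.

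Between 15815847 and 17095787 reads were recovered from the deposited values in 8 libraries, and 32193523 in Q11 replicate 2. Q11 replicate 2 held fewer reads than Q11 replicate 3 in only 11 of the 19252 genes read in replicate 3, against 1929 to 2413 genes for each of the other 7 libraries. Replicate 2 was taken to hold the reads of replicate 3 besides its own, and the tests of the 10 genes are also given with the reads of replicate 3 subtracted from replicate 2 (shared reads separated), which left 15336276 reads in replicate 2. Levels, means and SDs are as deposited unless stated, so an SD over the Q11 libraries is not one of 3 independent libraries. Limma pools the spread of all libraries, so intervals and p-values as deposited, also for M2 minus Ctrl, may be too narrow or too low. Counts of the further gene lists are as deposited. All 8 macrophage markers reached 1 TPM, and their summed level was 7289 to 7328 TPM in Q11 libraries and 6979 to 7525 TPM in M2 libraries, against 10727 to 11100 TPM in Ctrl libraries. Lyz2, lysozyme, made most of that difference, with 3722 ± 38.5, 3595 ± 223 and 6859 ± 244 TPM in Q11, M2 and Ctrl cells (SD, n = 3 each). The markers of fibroblasts, lymphocytes and epithelial cells that had a row (3 of 6, 4 of 6 and 1 of 5) summed to at most 2.06 TPM in any library. The neutrophil markers that had a row (5 of 7) summed to 17.1 to 19.9, 17.8 to 29.5 and 29.7 to 39.4 TPM in Q11, M2 and Ctrl libraries. Markers without a row were not analysed. Osteoclasts also make Mmp9 and Spp1; of the 6 osteoclast markers in the table only Ctsk, a cysteine protease that macrophages make too, exceeded 10 TPM on average, and Calcr, the calcitonin receptor, was at or near 0. By the limma test described with the first comparison, 3 of the 8 macrophage markers (Lyz2, Mpeg1 and Ptprc) fell in Q11 against Ctrl cells. In M2 against Ctrl cells 4 of the 8 fell, these and Itgam. Among all genes tested 5.53% fell in Q11 and 5.75% in M2 against Ctrl cells. Adgre1, Cd68, Csf1r and Fcgr1 passed in neither. Ctsk fell in both (log2 difference -0.31 in Q11 and -0.20 in M2 cells). The neutrophil marker S100a8 fell in Q11 cells (-0.84, adjusted p = 0.0180, but 0.0547 to 0.0681 without Ctrl replicate 1 or Q11 replicate 1 or 2). No marker of the other lists passed, but only 1 fibroblast marker and no lymphocyte or epithelial marker was tested.

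The start regions of Spp1, Mmp13 and Mmp12 are shown because they belong to the most abundant gene of the set, which was lower after the cytokines, and to a neighbouring pair of protease genes, of which Mmp13 was higher. Each is the 250 bases before a transcription start (RefSeq, GRCm38.p6, plus strand, 5′ to 3′), at chr5:104434861-104435110 for Spp1, chr9:7272264-7272513 for Mmp13 and chr9:7344147-7344396 for Mmp12. Capitals mark matches to the motif letters described after them.
Spp1: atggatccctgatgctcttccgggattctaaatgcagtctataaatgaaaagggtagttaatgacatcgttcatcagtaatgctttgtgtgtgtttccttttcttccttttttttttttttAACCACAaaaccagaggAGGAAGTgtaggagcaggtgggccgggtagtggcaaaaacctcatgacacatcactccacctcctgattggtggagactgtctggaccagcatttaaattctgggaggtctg
Mmp13: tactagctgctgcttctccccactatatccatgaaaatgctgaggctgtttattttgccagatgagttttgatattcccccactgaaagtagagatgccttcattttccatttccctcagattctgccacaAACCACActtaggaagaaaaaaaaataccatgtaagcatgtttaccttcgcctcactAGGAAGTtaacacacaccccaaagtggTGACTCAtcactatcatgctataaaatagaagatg
Mmp12: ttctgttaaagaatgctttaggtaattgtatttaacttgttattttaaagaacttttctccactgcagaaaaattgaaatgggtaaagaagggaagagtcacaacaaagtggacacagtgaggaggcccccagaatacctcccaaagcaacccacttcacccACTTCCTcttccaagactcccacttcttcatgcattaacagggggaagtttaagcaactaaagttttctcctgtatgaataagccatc
The letters searched, on both strands, were TGANTCA (AP-1, the Fos and Jun family), AACCACA (Runx), AGGAAGT (ETS, the form bound by the macrophage factor PU.1) and, for STAT6, the factor activated by IL-4, TTC and GAA with any 4 bases between them; they were picked after the sequences had been seen. The Mmp13 window held AP-1 letters 35 to 29 bases before the start, ETS letters 62 to 56 bases before it and Runx letters 119 to 113 bases before it. The Spp1 window held Runx letters 129 to 123 bases and ETS letters 112 to 106 bases before the start. The Mmp12 window held ETS letters on the reverse strand, 88 to 82 bases before the start, and no AP-1 or Runx letters; the window of its further start site, not shown, held AP-1 letters 44 to 38 bases before that site. No 2 matches overlapped. Among 32851 windows of the same length, 6.75% held the AP-1 letters, 4.4% the Runx letters, 7.69% the ETS letters and 5.85% the STAT6 letters, which were in none of these 3 windows. Spp1 and Mmp12 have a further start site in RefSeq, and the site next to the annotated start of the gene was used. RefSeq windows were matched by symbol for 8 of the 10 genes, not for Mmp9 and Mmp19. Such matches describe the letters and are not evidence of binding.

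The first comparison asks how the cytokines IL-4 and IL-13 alone changed these genes. Spp1, Mmp9, Mmp12 and Mmp19 were lower and Mmp13 was higher in M2 than in Ctrl cells, so 5 of the 8 tested genes passed the test (limma on log2(TPM + 1), Benjamini-Hochberg adjusted p under 0.05 over all 14207 genes). Among all genes tested 12.6% passed it, 6.88% higher and 5.75% lower. The M2 and Ctrl libraries did not overlap for 6 of the 8 genes, against 28.4% of all genes. With the shared reads separated 4 of the 8 passed, 3 lower and Mmp13 higher, where 9.22% of all genes did, 4.92% higher and 4.3% lower; 6 of 8 did not overlap, against 28.7% of all genes. The median log2 change of the 8 genes was -0.08, and that of all genes tested -0.003. Spp1, Mmp9 and Mmp13 passed the test under each of the 19 other settings tried, whereas Mmp12 passed under 6 of 19 and Mmp19 under 10 of 19.

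**Figure D1:**
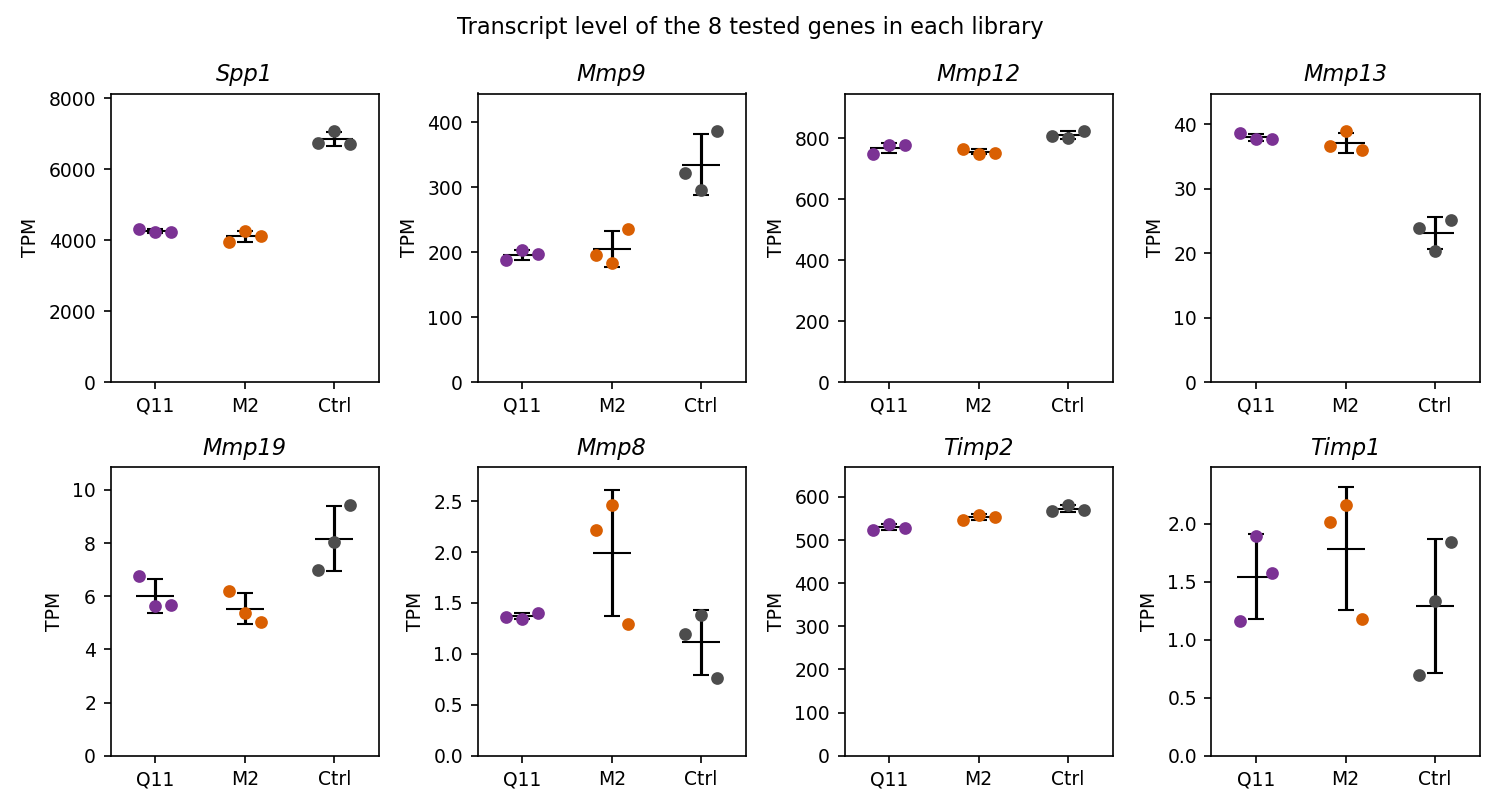
Level in TPM (vertical axis, starting at 0, with its own range for each gene) of the 8 tested genes in the Q11, M2 and Ctrl libraries. Each point is 1 library, and the bars give the mean and SD of 3 libraries. Spp1 and Mmp9 were highest in all 3 Ctrl libraries and Mmp13 was lowest in them, while Q11 and M2 libraries overlapped for these 3 genes.

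Spp1 (chr5:104435118-104441050, plus strand, protein coding) was among the most abundant transcripts of these cells, ranking 12 or 13 in Q11 and M2 libraries and 7 or 8 in Ctrl libraries by TPM. Its level was 4314, 4229 and 4232 TPM in the 3 Q11 libraries, 3956, 4265 and 4116 TPM in the 3 M2 libraries, and 6741, 7071 and 6719 TPM in the 3 Ctrl libraries. Every Ctrl library lay above every cytokine-treated library. In M2 cells the mean fell by 39.9% relative to Ctrl cells, a log2 difference of -0.73 (95% interval -0.81 to -0.66, adjusted p = 5.54e-06). Quantile normalization, which forces the libraries to 1 distribution, gave the smallest difference of the settings tried, -0.48. In a bulk culture, fewer cells with a transcript and less of it per cell cannot be told apart. The summed macrophage markers, led by Lyz2, moved the same way between the groups, but not every marker did. Cd68 averaged 2494, 2591 and 2554 TPM in Q11, M2 and Ctrl cells, and Adgre1 13.2, 12.8 and 12.5 TPM. Of the 8 markers, Lyz2, Mpeg1 and Ptprc passed the test as lower in both treated groups. The part of the markers in the result was not tested. Spp1 shares 309 of its 1648 exon bases with the same-strand gene model Gm42793, which itself averaged 6.40, 5.69 and 14.6 TPM in Q11, M2 and Ctrl cells, so reads of that stretch cannot be assigned with certainty.

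Mmp9, gelatinase B, which cuts denatured collagen and basement membrane collagen, was the second most abundant metalloproteinase of the set. It had 187, 203 and 197 TPM in Q11 libraries, 195, 183 and 236 TPM in M2 libraries, and 321, 295 and 386 TPM in Ctrl libraries (3037 to 6827 reads in each). The lowest Ctrl library was above the highest treated library. M2 cells averaged 205 ± 27.4 TPM and Ctrl cells 334 ± 46.9 TPM (SD, n = 3 each), so that it fell by 38.7% in M2 cells (log2 difference -0.70, 95% interval -0.95 to -0.45, adjusted p = 0.00395). Relative to its mean, Mmp9 spread more within each of these groups than Spp1, which averaged 4113 ± 155 TPM in M2 cells and 6844 ± 197 TPM in Ctrl cells.

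Mmp13, collagenase 3, a collagenase that is strong on type II collagen, was the 1 member that passed the test as higher after the cytokines. It had 38.6, 37.6 and 37.7 TPM in Q11 libraries, 36.5, 38.9 and 35.9 TPM in M2 libraries, and 23.9, 20.3 and 25.1 TPM in Ctrl libraries (274 to 956 reads in each). All 6 treated libraries lay above all 3 Ctrl libraries. Its mean was 60.7% higher in M2 than in Ctrl cells (log2 difference 0.67, 95% interval 0.50 to 0.83, adjusted p = 5.19e-04). This gene carries the start region shown above that held AP-1, Runx and ETS letters together. As background, AP-1 and Runx sites of the Mmp13 promoter are known from cartilage and bone cells. Whether any of these letters had a part in the difference was not tested.

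Mmp12, the macrophage elastase, was the most abundant of the 6 metalloproteinases in every library, and its difference between M2 and Ctrl cells was the smallest of the 5 that passed the test. Its level was 748, 778 and 779 TPM in Q11 libraries, 765, 748 and 753 TPM in M2 libraries, and 807, 799 and 823 TPM in Ctrl libraries. The M2 libraries all lay below the Ctrl libraries, and the mean fell by 6.7% (log2 difference -0.10, 95% interval -0.16 to -0.04, adjusted p = 0.0318). With the shared reads separated the adjusted p was 0.0593, and over all settings it ran from 0.00408 to 0.110. Leaving out any single library other than Q11 replicate 1 ended the call, with adjusted p-values of 0.0524 to 0.103. Its annotated exons cover 7237 bases, retained introns included, and 157 of them overlap Mmp1b on the other strand, so its level per length depends on that annotation.

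Mmp19, which cuts basement membrane proteins, was low. It had 6.76, 5.63 and 5.67 TPM in Q11 libraries, 6.19, 5.38 and 5.03 TPM in M2 libraries, and 7.003, 8.06 and 9.45 TPM in Ctrl libraries (85 to 189 reads in each). The M2 libraries lay below the Ctrl libraries, with a log2 difference of -0.48 (95% interval -0.76 to -0.21, adjusted p = 0.0337, range over settings 0.0124 to 0.102). The call ended without Ctrl replicate 2 or 3, M2 replicate 2 or 3, or Q11 replicate 2 or 3, at adjusted p-values of 0.0540 to 0.102. Mmp19 shares 789 of its 3533 exon bases with the antisense gene Tmem198b, which averaged 11.6, 12.4 and 14.7 TPM in Q11, M2 and Ctrl cells. The sources used here do not say whether strand was kept, so reads there cannot be told apart.

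Mmp8, the collagenase best known from neutrophils, had 1.36, 1.35 and 1.40 TPM in Q11 libraries, 2.21, 2.47 and 1.29 TPM in M2 libraries, and 1.19, 1.39 and 0.760 TPM in Ctrl libraries. These values rest on 9 to 31 reads a library and overlapped between M2 and Ctrl cells (log2 difference 0.49, 95% interval 0.01 to 0.97, adjusted p = 0.180). Mmp14, a membrane-anchored enzyme that activates the proenzyme of Mmp2 with the help of Timp2, had 4, 5 and 3 reads in Q11 libraries, 0, 6 and 3 in M2 libraries and 0, 2 and 1 in Ctrl libraries. A library with 0 reads allows up to 3, so no difference in Mmp14 was detectable at this depth. Its partner Mmp2 was also barely read, with 5 to 17 reads a library.

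Of the 2 inhibitors tested, Timp2 was the abundant one. Its level was 524, 538 and 529 TPM in Q11 libraries, 546, 559 and 554 TPM in M2 libraries, and 567, 582 and 569 TPM in Ctrl libraries. M2 libraries lay below Ctrl libraries by little, and the difference did not pass the test (log2 difference -0.05, 95% interval -0.10 to 0.001, adjusted p = 0.199). Of the 19 other settings only quantile normalization called it (-0.10, adjusted p = 0.0248). Timp1 had 1.16, 1.90 and 1.58 TPM in Q11 libraries, 2.02, 2.16 and 1.18 TPM in M2 libraries, and 0.697, 1.34 and 1.84 TPM in Ctrl libraries, from 3 to 16 reads each. Its groups overlapped, and the 95% interval of the M2 minus Ctrl log2 difference ran from -0.27 to 0.86 (adjusted p = 0.511). Timp1 lies inside an intron of Syn1 on the other strand and shares no exon bases with it. Timp4 had 0 to 3 reads a library. Timp2 made at least 99.6% of the summed Timp1 and Timp2 level in every library.

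The second comparison asks what Q11 changed when given with the cytokines. None of the 8 genes passed the test between Q11 and M2 cells, and neither did any other gene: limma called 0 of 14207 (0%), with 1620 at an unadjusted p under 0.05 and a lowest adjusted p of 0.213. A voom fit of the recovered reads called 2 genes, neither of them among the 8, and 0 with the shared reads separated. Limma called 3 genes with no filter on low values, 2 with no trend, 2 without M2 replicate 1 and 1 without Ctrl replicate 3; none of the 19 other settings called any of the 8. The Spp1 means were 4258 ± 48.1 TPM in Q11 cells and 4113 ± 155 TPM in M2 cells (SD, n = 3 each), and the 95% interval of their log2 difference ran from -0.03 to 0.13. For Mmp9 the interval was -0.31 to 0.19, for Mmp12 -0.03 to 0.08, for Mmp13 -0.13 to 0.20 and for Mmp19 -0.17 to 0.38. For Mmp8 it was -0.79 to 0.16 and for Timp1 -0.69 to 0.44, so larger differences of these 2 low genes lay within the error.

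Timp2 was the only one of the 8 genes whose Q11 libraries did not overlap the M2 libraries, against 17.6% of all genes. It averaged 530 ± 7.17 TPM in Q11 cells and 553 ± 6.83 TPM in M2 cells (SD, n = 3 each), a log2 difference of -0.06 (95% interval -0.11 to -0.01, unadjusted p = 0.0246, adjusted p = 0.379). With the shared reads separated the level of Q11 replicate 2 was 554 TPM and the libraries overlapped. None of the 8 genes then stood apart (0 of 8, against 12.5% of all genes), the SD of Timp2 over the Q11 libraries was 16.1 in place of 7.17 TPM, and the log2 difference was -0.05.

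The third comparison sets Q11 cells against Ctrl cells, and so shares its Ctrl libraries with the first. Spp1, Mmp9 and Timp2 were lower and Mmp13 was higher, 4 of 8 genes, where 10.7% of all genes passed the test, 5.19% higher and 5.53% lower. With the shared reads separated 3 of the 8 passed, without Timp2, where 7.89% of all genes did, 3.96% higher and 3.93% lower. Groups did not overlap for 6 of the 8 genes as deposited, against 32.1% of all genes, and for 6 with the shared reads separated, against 26.7%.

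Spp1 fell by 37.8% in Q11 relative to Ctrl cells (log2 difference -0.68, 95% interval -0.76 to -0.61, adjusted p = 7.70e-06). Mmp9 averaged 196 ± 7.78 TPM in Q11 cells and 334 ± 46.9 TPM in Ctrl cells (SD, n = 3 each), a log2 difference of -0.76 (95% interval -1.01 to -0.51, adjusted p = 0.00286). Mmp13 was 64.5% higher in Q11 cells (log2 difference 0.70, 95% interval 0.54 to 0.86, adjusted p = 4.42e-04). With the shared reads separated the log2 differences of these 3 genes were -0.68, -0.74 and 0.70, and the SDs of Spp1, Mmp9 and Mmp13 over the Q11 libraries were 40.8, 12.7 and 0.451 TPM. The highest adjusted p over all settings was 4.09e-04 for Spp1, 0.0145 for Mmp9 and 0.00324 for Mmp13, so these calls also stood without either of the Q11 libraries that share reads.

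Timp2 averaged 530 ± 7.17 TPM in Q11 cells and 573 ± 8.19 TPM in Ctrl cells (SD, n = 3 each), so that it fell by 7.42% in Q11 cells (log2 difference -0.11, 95% interval -0.16 to -0.06, adjusted p = 0.0150). The adjusted p was 0.0825 with the shared reads separated, the highest over all settings, of which the lowest was 0.00432. Leaving out Ctrl replicate 2, Q11 replicate 1 or Q11 replicate 3 also ended the call, at adjusted p-values of 0.0567, 0.0575 and 0.0661. Mmp12 and Mmp19 were 768 ± 17.6 and 6.02 ± 0.644 TPM in Q11 cells, against 810 ± 12.1 and 8.17 ± 1.23 TPM in Ctrl cells; the libraries did not overlap for either gene, but neither passed the test (adjusted p = 0.0933 and 0.0870).

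**Figure D2:**
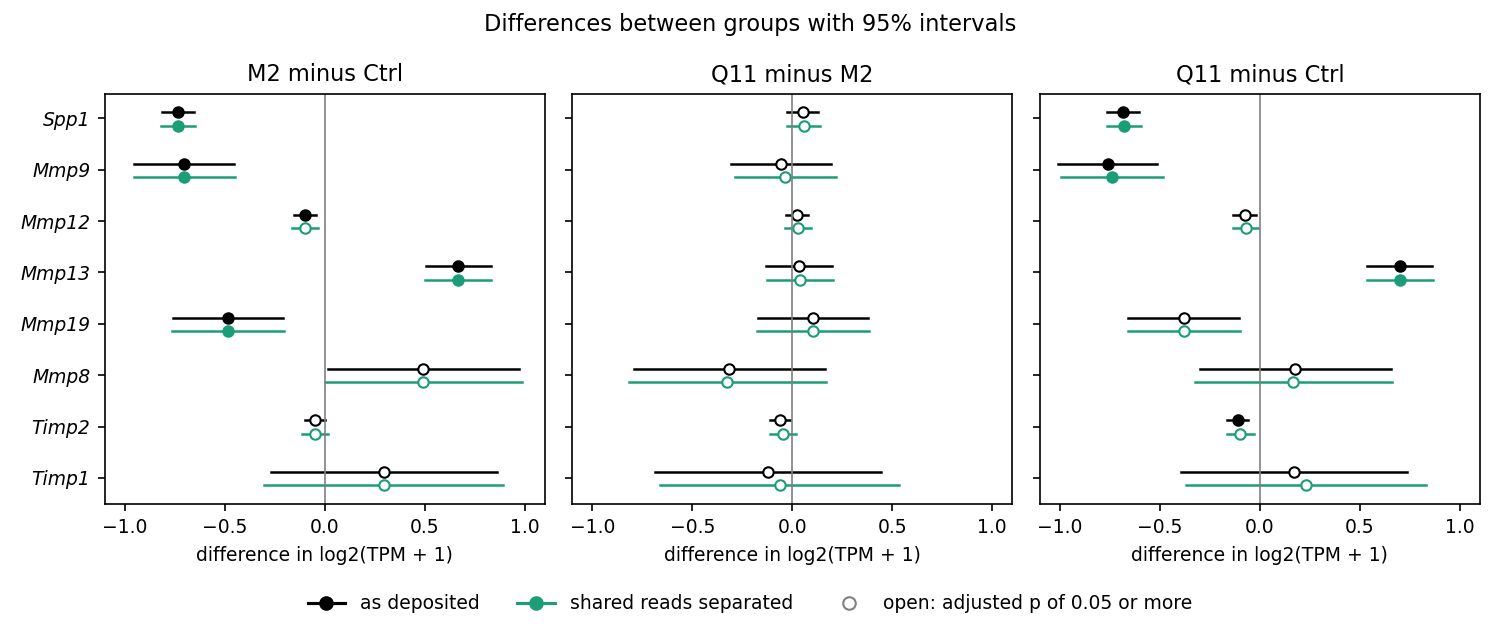
Difference in log2(TPM + 1) (horizontal axis) of the 8 tested genes for M2 minus Ctrl, Q11 minus M2 and Q11 minus Ctrl, with 95% intervals from the limma fit. Black points are the values as deposited and green points those with shared reads separated; filled points have an adjusted p under 0.05. Spp1 and Mmp9 lie left of 0 and Mmp13 right of 0 in both comparisons with Ctrl, and no point is filled for Q11 minus M2.

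The make-up of the metalloproteinase transcripts differed between treated and Ctrl cells. Summed over the 6 genes, metalloproteinase transcripts came to 982 to 1026 TPM in Q11 libraries and 979 to 1031 TPM in M2 libraries, against 1124 to 1245 TPM in Ctrl libraries. Mmp9 made 19.1% to 19.8% of that sum in Q11 libraries and 18.7% to 22.9% in M2 libraries, against 26.3% to 31.0% in Ctrl libraries. The share of Mmp13 was 3.67% to 3.93% in Q11 libraries and 3.49% to 3.98% in M2 libraries, against 1.80% to 2.06% in Ctrl libraries. Mmp12 made 75.8% to 76.3% in Q11 libraries, 73.0% to 76.5% in M2 libraries and 66.1% to 71.1% in Ctrl libraries. For all 3 shares the Ctrl libraries stood apart from the others. The ratio of summed metalloproteinase to summed Timp1 and Timp2 levels was 1.87 to 1.92 in Q11 libraries and 1.74 to 1.85 in M2 libraries, against 1.93 to 2.18 in Ctrl libraries, with no overlap between the groups. With the closest pair of libraries at 1.92 in Q11 and 1.93 in Ctrl cells, the gap between those groups was narrow; no test was made of these sums. Once its shared reads were separated, Q11 replicate 2 had a sum of 1043 TPM, of which Mmp9 made 20.4%, Mmp13 3.64% and Mmp12 75.3%, and a ratio of 1.88.

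**Figure D3:**
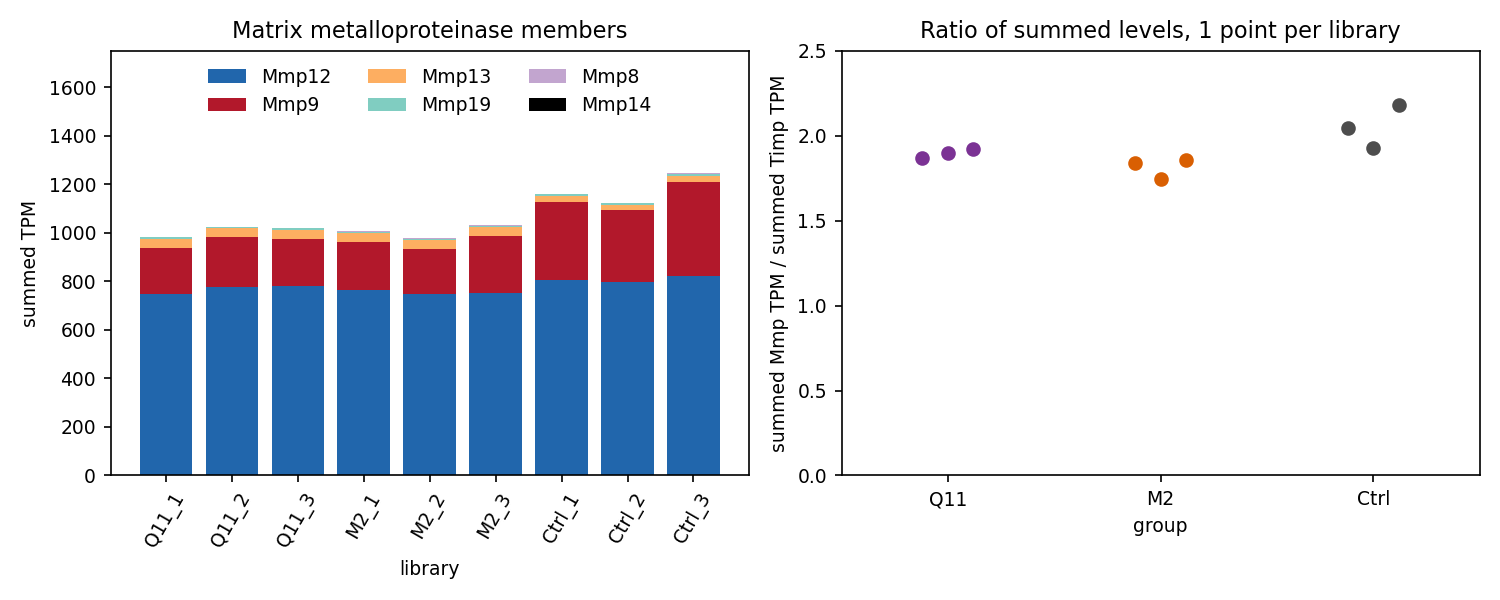
Left, summed TPM of the 6 metalloproteinase genes (vertical axis, from 0) in each of the 9 libraries, stacked by gene; Mmp8 and Mmp14 are too low to be seen. Right, summed metalloproteinase TPM over summed Timp1 and Timp2 TPM, 1 point per library. Mmp12 makes most of every bar, the Mmp9 segment is tallest in Ctrl libraries, and the ratio is highest in Ctrl libraries (1.93 to 2.18).

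Mmp13, Mmp12 and Mmp8 lie in a run of 9 protein-coding metalloproteinase genes on chromosome 9 that spans 427 kb (GRCm38) between the start of Mmp13 and the end of Mmp7. Of the 9, 6 had a row in the table and 5 were tested; Mmp1b, Mmp3 and Mmp20 were not analysed here, and Mmp7 had 0 or 1 read a library. Mmp10, stromelysin 2, had 13.4, 16.6 and 17.0 TPM in Q11 libraries, 16.6, 19.97 and 19.92 TPM in M2 libraries, and 10.5, 9.53 and 13.1 TPM in Ctrl libraries. All M2 libraries lay above all Ctrl libraries, and the log2 difference was 0.73 (95% interval 0.43 to 1.02, adjusted p = 0.00759). In Q11 cells Mmp10 missed the threshold against Ctrl cells (log2 difference 0.47, adjusted p = 0.0501), without overlap, and did not pass against M2 cells either (-0.26, 95% interval -0.55 to 0.03). Mmp27 averaged 2.99 ± 0.572, 3.12 ± 0.108 and 1.76 ± 0.798 TPM in Q11, M2 and Ctrl cells (SD, n = 3 each), from 14 to 59 reads a library, and did not pass the test for M2 minus Ctrl (adjusted p = 0.0895). Within the run, Mmp13 and Mmp10 were thus called higher in M2 cells and Mmp12 lower. The Mmp12 call held under only 6 of the 19 other settings. Mmp12 and Mmp13 start 71.9 kb apart.

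**Figure D4:**
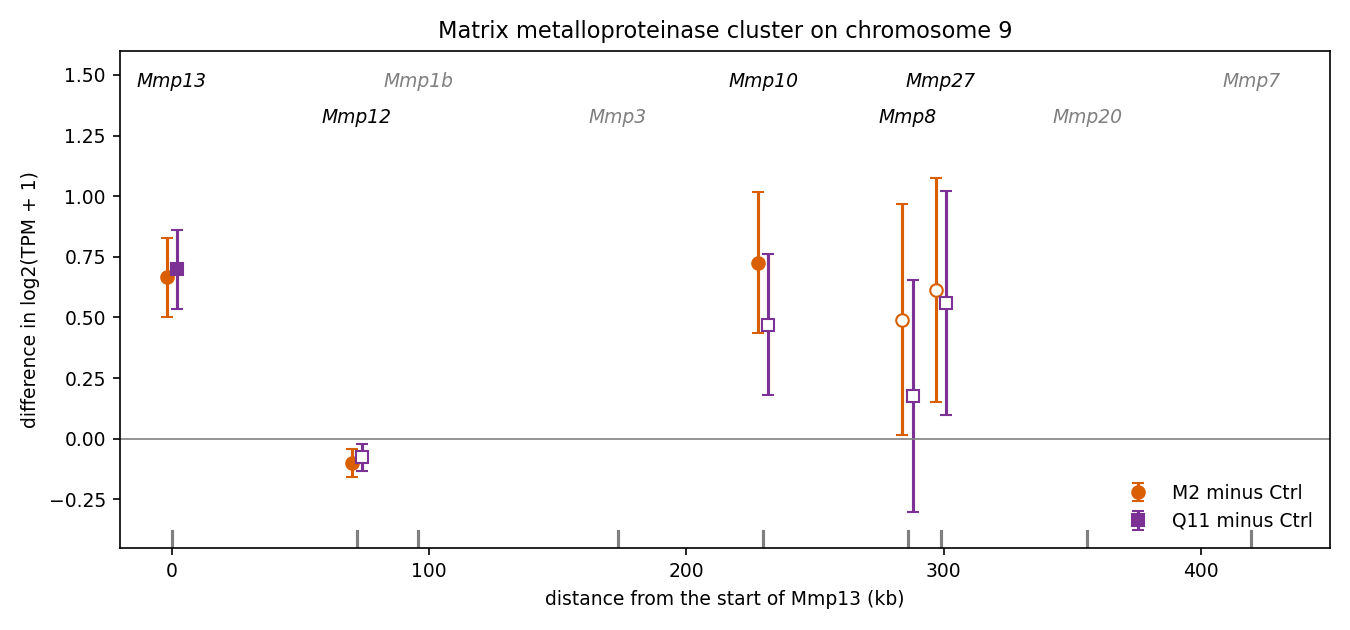
Difference in log2(TPM + 1) (vertical axis) for M2 minus Ctrl (circles) and Q11 minus Ctrl (squares), with 95% intervals, against distance in kb from the start of Mmp13; ticks mark gene starts, grey names are genes without a test, and filled symbols have an adjusted p under 0.05. Mmp13 at 0 kb and Mmp10 at 230 kb lie above 0, and Mmp12 at 71.9 kb lies just under it.

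Besides the 10 genes, 18 further metalloproteinase and Timp4 genes were looked up, of which 11 had a row and Mmp10 and Mmp27 were tested. The list of ADAM and ADAMTS genes, mostly metalloproteases with a disintegrin domain, also held the ADAMTS-like gene Adamtsl4 and was mixed. Of 9 tested, 2 rose and 1 fell in M2 against Ctrl cells, where 6.88% of all genes rose and 5.75% fell. Adam17, the sheddase that frees TNF from the cell surface, averaged 126 ± 2.34 TPM in Q11 cells and 122 ± 2.76 TPM in M2 cells, against 165 ± 3.66 TPM in Ctrl cells (SD, n = 3 each). Its log2 difference was -0.43 for M2 minus Ctrl (adjusted p = 3.73e-05). Adam8 rose to 1126 ± 56.4 TPM in M2 cells, against 928 ± 35.8 TPM in Ctrl cells (log2 difference 0.28, adjusted p = 0.00250), and Adam9 to 298 ± 5.79 TPM, against 252 ± 1.18 TPM (0.24, adjusted p = 2.30e-04). In Q11 against Ctrl cells, where 5.19% of all genes rose and 5.53% fell, 2 rose (Adam8, 0.25, and Adam9, 0.24) and 2 fell, Adam17 (-0.38) and Adamts10 (-0.29). The Adamts10 call ended with the shared reads separated (adjusted p = 0.0552) and without any single Q11 or Ctrl library (adjusted p = 0.0628 to 0.0979).

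Plasmin, made from plasminogen by urokinase, is a known activator of metalloproteinase proenzymes. Of 10 plasminogen genes tested, 2 fell and 1 rose in M2 against Ctrl cells (all genes: 5.75% fell and 6.88% rose). The urokinase receptor Plaur had 197 ± 2.63, 202 ± 1.65 and 251 ± 6.61 TPM in Q11, M2 and Ctrl cells (SD, n = 3 each), and urokinase itself, Plau, 203 ± 1.76, 207 ± 9.21 and 257 ± 13.4 TPM. The log2 differences for M2 minus Ctrl were -0.31 for both (adjusted p = 1.24e-04 for Plaur and 0.00218 for Plau), and for Q11 minus Ctrl -0.35 and -0.34 (adjusted p = 6.68e-05 and 0.00144). Over the Q11 libraries the SDs became 5.71 TPM for Plaur and 4.22 TPM for Plau once shared reads were separated. S100a10, a plasminogen-binding partner of annexin A2, was the 1 that rose in M2 cells (0.16, adjusted p = 0.0260). That call ended with the shared reads separated (0.0650) and without Ctrl replicate 1 or 2 or M2 replicate 1 or 3 (0.0596 to 0.0890). It also ended with no filter on low values (0.0605), quantile normalization (0.0581), no trend (0.0745) and only the compared groups (0.0655). Among 6 tested activators, docking partners and other inhibitors, Cd44 rose in M2 cells and none fell. In Q11 against Ctrl cells Cd44 rose, and Furin, a convertase that cuts the propeptide of some metalloproteinases, fell (-0.17, adjusted p = 0.0358). Plaur and Plau were the 2 of the 10 plasminogen genes called there. Among all genes tested 5.19% rose and 5.53% fell in Q11 against Ctrl cells. The Furin call ended with the shared reads separated (-0.14, adjusted p = 0.217) and without any single library of either group other than Q11 replicate 2 (0.0650 to 0.123).

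The receptors of osteopontin are integrins and CD44. Of 8 tested genes of the list of osteopontin receptors and relatives, 1 rose and 2 fell in M2 against Ctrl cells (all genes: 6.88% rose and 5.75% fell). Itgav and Itgb1 passed the test in no comparison. Itgb3, at 0.528, 0.621 and 0.195 TPM in Q11, M2 and Ctrl cells, was not tested. Cd44 is counted here and among the docking partners above. Cd44, which docks both osteopontin and Mmp9, had 187 ± 0.975, 181 ± 5.04 and 167 ± 3.99 TPM in Q11, M2 and Ctrl cells (SD, n = 3 each), the Q11 SD being 2.41 TPM with the shared reads separated. Its log2 difference was 0.16 for Q11 minus Ctrl (adjusted p = 0.00765) and 0.12 for M2 minus Ctrl (adjusted p = 0.0262). The M2 call of Cd44 ended without Ctrl replicate 2 or 3, M2 replicate 1 or 2 or Q11 replicate 2 (0.0521 to 0.0827). It also ended under quantile normalization (0.0720), with no trend (0.0824) and with only the compared groups (0.0837). Itga4 fell to 17.7 ± 1.95 TPM in M2 cells, against 23.7 ± 1.03 TPM in Ctrl cells (-0.40, adjusted p = 0.00945), and Itga5 to 183 ± 6.52 TPM, against 208 ± 1.76 TPM (-0.19, adjusted p = 0.00450). In Q11 against Ctrl cells (all genes: 5.19% rose and 5.53% fell) Cd44 rose and Itga5 (-0.25, adjusted p = 0.00102) and Itgb5 (-0.25, adjusted p = 0.0190) fell. The Itgb5 call ended without Ctrl replicate 1 or 2 or Q11 replicate 2 or 3 (0.0617 to 0.0796).

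Of 6 matrix and matricellular genes tested, 1 rose and 2 fell in M2 against Ctrl cells (all genes: 6.88% rose and 5.75% fell). The same 3 passed the test in Q11 against Ctrl cells (all genes: 5.19% rose and 5.53% fell). There the adjusted p of Lgals3 was 0.0558 with no filter on low values, and that of Gpnmb was 0.0503 under quantile normalization. Lgals3, the lectin galectin-3, averaged 2952 ± 25.5, 3093 ± 85.9 and 2620 ± 40.0 TPM in Q11, M2 and Ctrl cells (SD, n = 3 each; M2 minus Ctrl 0.24, adjusted p = 7.15e-04). Ecm1, extracellular matrix protein 1, averaged 73.9 ± 1.63, 78.0 ± 3.42 and 93.8 ± 3.57 TPM (-0.26, adjusted p = 0.00408). Gpnmb, a membrane glycoprotein also called osteoactivin, averaged 2691 ± 10.0, 2822 ± 71.7 and 3062 ± 66.4 TPM. Its M2 minus Ctrl difference was -0.12 (adjusted p = 0.0243) and came to 0.000803 under quantile normalization. The call also ended without Ctrl replicate 1 or 2 or M2 replicate 1 or 2 (0.0572 to 0.0829). With no filter on low values the adjusted p was 0.176. It was 0.0798 with no trend, 0.0870 with only the compared groups and 0.0618 with the replicate block.

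Transcription factors, mainly of the AP-1, ETS and MiT families, were named for the motif letters searched above and for macrophage and osteoclast genes. Of 17 tested, 5 rose and 3 fell in M2 against Ctrl cells, where 6.88% of all genes rose and 5.75% fell. The MiT genes Mitf, Tfeb and Tfe3 passed the test in no comparison. Nor did Runx1 (M2 minus Ctrl -0.12, adjusted p = 0.217) or Spi1, which encodes PU.1 (-0.03, adjusted p = 0.685). Batf3 rose to 15.3 ± 1.02 TPM in M2 cells, against 8.41 ± 1.98 TPM in Ctrl cells (0.82, adjusted p = 0.00895). Atf3, a stress-induced partner of Jun, averaged 363 ± 2.70, 382 ± 31.8 and 282 ± 9.07 TPM in Q11, M2 and Ctrl cells (SD, n = 3 each; M2 minus Ctrl 0.44, adjusted p = 0.00115). Fosl2 averaged 37.5 ± 1.32, 37.4 ± 1.80 and 28.4 ± 1.77 TPM (0.38, adjusted p = 0.00266). Ets2 fell, with 114 ± 1.61, 108 ± 3.07 and 150 ± 2.35 TPM (-0.47, adjusted p = 2.18e-05), as did Fos (-0.40, adjusted p = 0.0175, at 0.0560 and 0.0570 without Ctrl replicate 1 or 2). The other called genes were Jun and Etv5, higher, and Etv4, lower; Jun and Etv5 are named here after their values were seen. The adjusted p of Jun was 0.0136 and at most 0.0522 over the settings; the Etv4 call ended without Ctrl replicate 3 (0.0752) and without any single M2 library (0.0577 to 0.0746). In Q11 against Ctrl cells (all genes: 5.19% rose and 5.53% fell) 2 rose (Atf3, 0.37, and Fosl2, 0.39) and 3 fell (Ets2, -0.39, Etv4, -0.37, and Fos, -0.36); the Etv4 call ended without Q11 replicate 2 or 3 (adjusted p = 0.0643 and 0.0661), and the Fos call without any single Ctrl library (0.0632 to 0.0944) or Q11 replicate 2 or 3 (0.112 and 0.110). No gene of any of these lists passed the test in Q11 against M2 cells.

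The genes whose log2 level followed each member most closely were sought among 9321 genes by Pearson's r over the 9 libraries, as a description of libraries that share 3 group means. For Spp1 they were Anxa5, annexin A5 (r = 0.998; 1299, 1277 and 1742 TPM in Q11, M2 and Ctrl cells), and Cd14, the lipopolysaccharide co-receptor (r = 0.998; 991, 962 and 1527 TPM). For Mmp13 they were Pkp2, plakophilin 2 (r = 0.993; 12.4, 12.9 and 7.14 TPM), and Gatm, which makes the precursor of creatine (r = 0.988; 227, 221 and 162 TPM). Mmp9 was followed by Septin8 and Ubash3b (r = 0.985 and 0.984) and Mmp12 by Pias3 and Fam102a (r = 0.978 and 0.970). Mmp19 was followed by Tmem134 and Nsd3 (r = 0.975 and 0.952) and Timp2 by Stau2 (r = 0.967). Every one of these genes had, like its member, a Ctrl mean outside the range of the Q11 and M2 means.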

How the data were processed

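RNA of 9 J774A.1 libraries (3 each of Q11, M2 and Ctrl) was sequenced with a NEBNext Ultra kit after poly-T selection, per the labels' protocols. The submitters' processing notes name GRCm38 (mm10), HISAT2 2.0.5 and StringTie 1.3.3b; annotation release and counting settings are not given in the sources used here. A single table of TPM, with columns of equal total, was deposited by the authors. TPM multiplied by GENCODE M21 exon length gave whole reads (within 0.1 read) for at least 98.8% of values of up to 20 reads. Genes reaching 1 TPM in 3 or more libraries were fitted as log2(TPM + 1), a scale that understates changes of low genes, with limma 3.58.1 (lmFit, contrasts.fit, eBayes with trend) in R 4.3.3, all 9 libraries sharing 1 spread with 6 residual degrees of freedom. Tests were two-sided and adjusted by Benjamini-Hochberg over all genes, at 0.05. The labels do not say whether libraries are separate cultures, so p-values measure the spread between libraries, which may be technical. Summaries and plots were made with pandas 2.3.3, numpy 2.4.6 and matplotlib 3.10.9 under Python 3.11.15. The fit was tested on simulated data.

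The members and gene lists were chosen with earlier results of these data known. Named genes were the 10 members, up to 4 genes past the threshold with the largest change from each list and comparison, and the 2 best correlated genes for each tested member averaging at least 5 TPM, of which 1 is not reported here. The alternatives were a pseudocount of 0.1, no filter or one of 5 TPM, quantile normalization, no trend, only the groups compared, shared reads separated, voom on recovered reads with and without that separation, a replicate block, and leaving out each library. Intervals and read floors cover counting error or library spread only.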

Additional observations from a re-analysis of the deposited data

How the results depend on the processing

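Of the 3 counts of genes called among the 8, that for Q11 minus M2 was 0 under every setting, and that for Q11 minus Ctrl was 3 to 6. That for M2 minus Ctrl was 5, reached 6, with Timp2, under quantile normalization, fell to 3 with no filter on low values, with only the compared groups in the fit and with the replicate block, and ran from 3 to 5 when 1 library was left out; it was 3 without Ctrl replicate 2 or 3, M2 replicate 2 or 3, or Q11 replicate 2 or 3. Those remaining at 3 were Spp1, Mmp9 and Mmp13; Mmp12 and Mmp19 were lost. Libraries of the same number did not deviate together (correlations of -0.0309 to 0.0362). With 3 libraries a group, and reads shared by Q11 replicates 2 and 3, this showed no pairing by number but cannot exclude it. The replicate block left the counts for Q11 minus M2 and Q11 minus Ctrl at 0 and 4. Quantile normalization turned the sign of Gpnmb (M2 minus Ctrl 0.000803) and, for Q11 minus M2, of Adam8 (0.0172), Adam9 (0.0119) and Lyz2 (-0.0344). Leaving out 1 library turned the sign of some differences that had not passed the test. For Q11 minus M2 the log2 differences then ran from -0.133 to 0.0471 for Mmp9, -0.0622 to 0.00924 for Adam8, -0.0129 to 0.0136 for Adam9, -0.0489 to 0.127 for Fos, -0.0222 to 0.0446 for Fosl2 and -0.0554 to 0.00569 for Plau. For Q11 minus Ctrl that of Timp1 ran from -0.0291 to 0.344. The cause was not tested. The calls of Furin, Adamts10, Itgb5 and Fos in Q11 against Ctrl cells also ended under settings not named with them. So did those of Etv4 and Fos in M2 against Ctrl cells. These settings were no filter, no trend, only the compared groups, voom with shared reads separated or the replicate block (adjusted p = 0.0523 to 0.0838). Depth limits Mmp8, Mmp14 and Timp1, with 0 to 31 reads a library.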
